A study of Mus musculus with 24 samples.

Results

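Nitric oxide, arginine and itaconate metabolism was followed through 9 genes in mouse bone marrow-derived macrophages (BMDMs): Nos2, Gch1, Slc7a2, Ass1, Asl, Arg1, Arg2, Odc1 and Irg1, the older symbol of Acod1. They were taken by symbol from the deposited tables, which list 23420 genes, and each of the 9 had 1 row in every table. RNA-seq counts came from 24 libraries, of which 16 were BMDMs. The BMDMs formed 8 groups of 2 libraries.

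All mice were adult and on the C57BL/6 background, and BMDMs were grown from bone marrow in L929-conditioned medium, a source of the macrophage growth factor M-CSF. In the Tdg cohort, TDG iKO cells came from Tdg fl/fl CreERT2 mice and were set against WT cells. In the Tet cohort, TET iTKO cells came from CreERT2 mice with floxed Tet1, Tet2 and Tet3 and were set against a WT of their own. TDG is a DNA glycosylase that removes 5-formylcytosine and 5-carboxylcytosine. The TET enzymes are the dioxygenases that make both of these, and also 5-hydroxymethylcytosine, from 5-methylcytosine. Deletion by CreERT2 was not limited to macrophages, and both Cre-carrying and control animals were given tamoxifen. Cells were taken at 0 h without stimulus or at 6 h of Kdo2-lipid A (KLA), a ligand of Toll-like receptor 4. The labels did not say which animals the libraries came from, so the p-values measure only the spread between these samples, which may be technical.

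Stimulated macrophages draw on arginine along competing routes. NOS2, the inducible nitric oxide synthase, turns arginine into citrulline and nitric oxide and needs tetrahydrobiopterin, whose synthesis GCH1 starts. SLC7A2 brings arginine into the cell, and ASS1 and ASL rebuild arginine from citrulline. The arginases ARG1 (cytosolic) and ARG2 (mitochondrial) split arginine into ornithine and urea, and ODC1 takes ornithine on to the polyamines. IRG1 makes itaconate from the tricarboxylic acid cycle intermediate cis-aconitate. Nos2 and Irg1 are textbook genes of the response to bacterial lipids, and Arg1 is best known from macrophages exposed to IL-4.

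The promoters of 2 genes that rose with KLA are shown because they carry the sequence motifs searched for. RefSeq promoters (GRCm38.p6) were matched for 4 of the 9 genes (Irg1, Ass1, Odc1 and Gch1), and the 250 bases before each start were read, 5′ to 3′ on the coding strand. Capitals mark an NF-kB site, GGAANNTCC or TATAAA on either strand.
Irg1: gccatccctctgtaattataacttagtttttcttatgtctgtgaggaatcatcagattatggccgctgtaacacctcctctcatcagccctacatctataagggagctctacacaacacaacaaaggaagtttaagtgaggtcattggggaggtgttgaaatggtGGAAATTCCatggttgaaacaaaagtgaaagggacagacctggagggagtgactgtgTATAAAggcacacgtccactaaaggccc
Gch1: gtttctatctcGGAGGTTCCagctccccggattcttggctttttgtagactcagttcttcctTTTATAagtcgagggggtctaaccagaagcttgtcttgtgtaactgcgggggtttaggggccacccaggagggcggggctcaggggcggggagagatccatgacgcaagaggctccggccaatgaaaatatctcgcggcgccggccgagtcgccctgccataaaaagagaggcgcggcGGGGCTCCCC
The Irg1 window held GGAANNTCC 85 bases and TATAAA 28 bases before the start. The Gch1 window held an NF-kB site 10 bases before the start, and the reverse forms of GGAANNTCC and TATAAA further upstream. Among 32851 RefSeq promoters of the same length, 3.9% held the NF-kB site, 3.59% GGAANNTCC and 12.4% TATAAA. No motif of the search, which also covered the interferon response element (2.98% of promoters) and the AP-1 site TGANTCA (6.75%), was found in the Odc1 and Ass1 windows. A match is a description of these letters and not a measured binding site.

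Assigned counts ranged from 4982950 to 19405606 in the Tdg cohort and from 13145625 to 21503302 in the Tet cohort. Over 9475 genes the median absolute log2 ratio of replicate 2 to replicate 1 was 0.24 to 0.54 in the groups of the Tdg cohort and 0.11 to 0.15 in those of the Tet cohort, so the Tet cohort resolved smaller changes. All 7 macrophage markers found were expressed in every library, and of 5 T cell markers Cd3e, Cd3d and Cd3g had at most 4, 5 and 1 counts, Lck at most 51 and Cd4 from 60 to 569. Of 8 textbook KLA-induced genes, 7 rose in either genotype of the Tdg cohort and 8 in either genotype of the Tet cohort (DESeq2). By edgeR, 6 were called in WT of the Tdg cohort. The counts are per gene and do not resolve the deleted exons, so they do not test the genotypes: Tet2, for instance, averaged 675 normalised counts in TET iTKO and 519 in WT cells at 0 h. Tdg had 0 counts in TDG iKO, but at most 4 summed over the 2 libraries of any other BMDM group, so its row is too low in WT to check the label. Counts below are normalised by DESeq2 size factors over the 16 BMDM libraries, and changes and p-values are from DESeq2 fits within each cohort, with Benjamini-Hochberg adjustment over all genes tested. Whether the libraries of 2 groups overlap is a description and not a test, and its share over all genes was not counted.

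**Figure D1:**
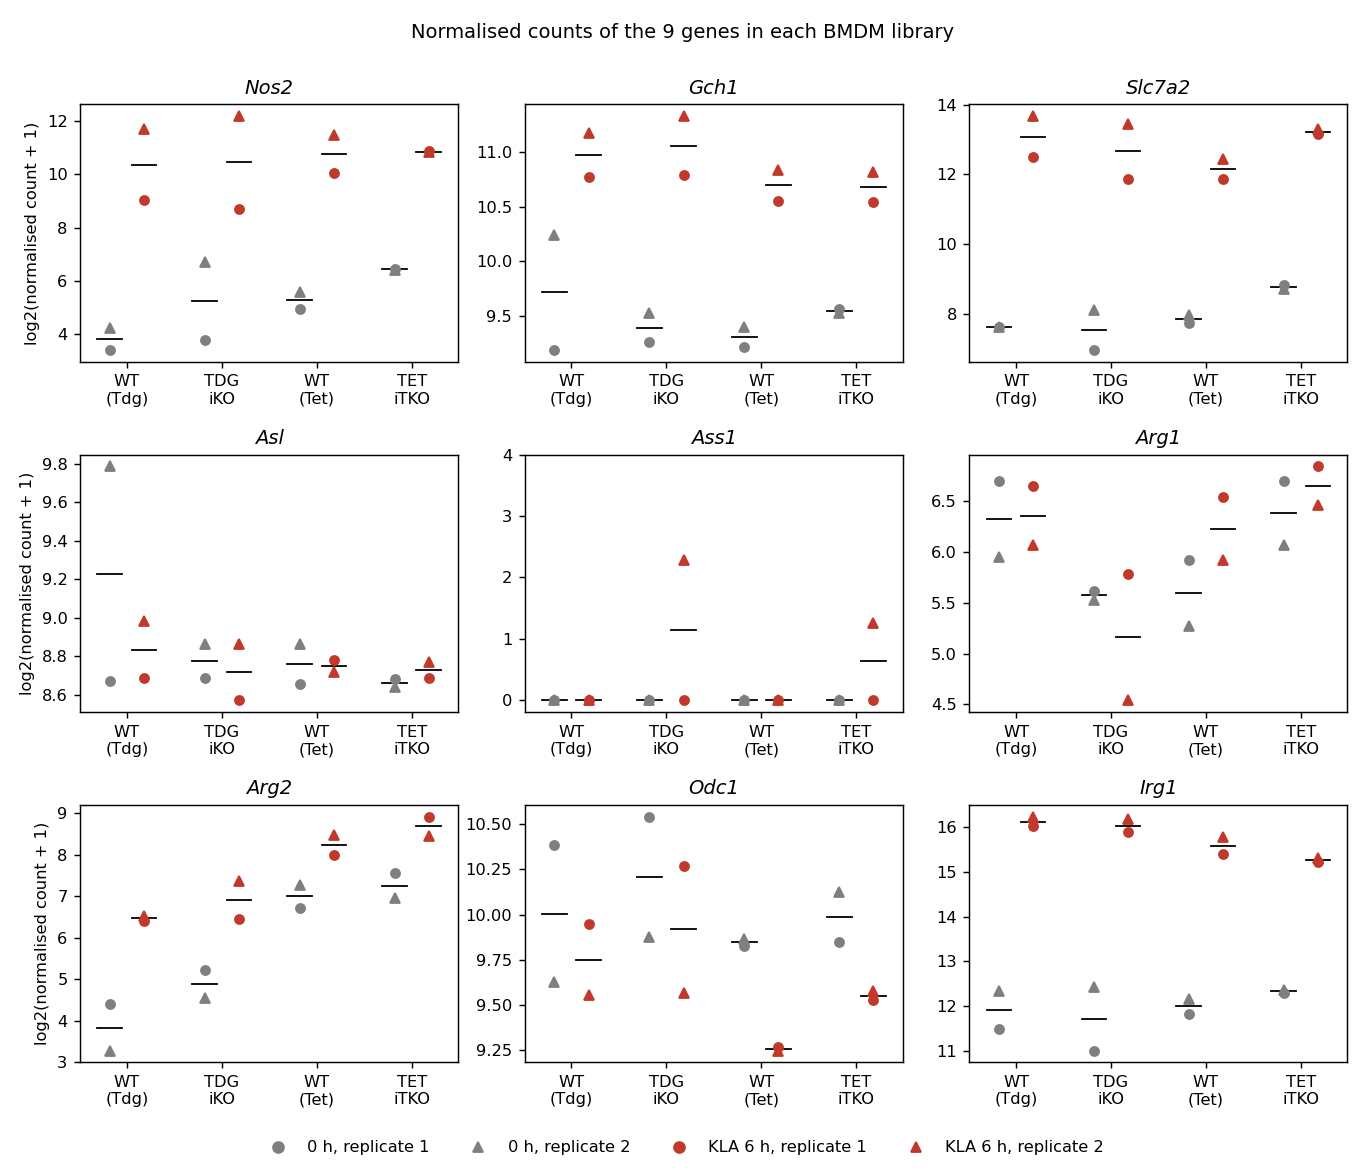
Normalised counts of the 9 genes in each of the 16 BMDM libraries, as log2 of the count plus 1 (vertical axis, scaled separately for each gene) for 4 genotypes (horizontal axis). Grey points are 0 h and red points 6 h of KLA, circles and triangles are replicates 1 and 2, and the line is the mean of both. Irg1, Slc7a2, Nos2 and Gch1 at 6 h lie above every 0 h library, and Ass1 has counts in 2 libraries only.

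By DESeq2, KLA raised 5 of the 9 genes in each of the 4 genotypes: Nos2, Irg1, Slc7a2, Arg2 and Gch1. In the Tdg cohort edgeR called only Irg1 and Slc7a2, in either genotype. Irg1 and Slc7a2 rose by 2.93 to 5.58 on the log2 scale and Gch1 by 1.13 to 1.68. Odc1 fell in both genotypes of the Tet cohort, and Asl and Arg1 did not pass the test in any genotype. Ass1 was too low to be tested. The called genes were 5 of 8 tested in WT of the Tdg cohort, where 8.6% of all 11633 genes tested were called, and 5 of 8 in TDG iKO, where 7.08% were. They were 6 of 8 in WT of the Tet cohort and 6 of 8 in TET iTKO, against 24.1% and 24.4% of all genes tested.

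Nos2 (chromosome 11, 78734289 to 78773756, mm9) had the largest of these changes in 3 of the 4 genotypes. In the Tdg cohort it went from 9.46 and 17.4 normalised counts at 0 h to 525 and 3318 at 6 h in WT, and from 12.6 and 104 to 417 and 4689 in TDG iKO. In the Tet cohort it went from 29.4 and 46.9 to 1067.1 and 2860 in WT, and from 86.2 and 84.5 to 1866 and 1848 in TET iTKO. Every 6 h library was above every 0 h library, by at least 4.02-fold. At 6 h the replicate 2 libraries of the Tdg cohort were far above their replicate 1 in both genotypes, a gap wider than that of 99.9% of genes, while the TET iTKO replicates were nearly equal.

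The log2 change of Nos2 was 7.19 ± 1.58 (SE) in WT of the Tdg cohort (DESeq2 adjusted p = 0.000191), 5.45 ± 1.54 in TDG iKO (0.00803), 5.68 ± 0.55 in WT of the Tet cohort (4.83e-23) and 4.44 ± 0.55 in TET iTKO (1.13e-14). The calls in the Tdg cohort rested on single libraries. Without WT 6 h replicate 2 the WT change was 5.32 with a DESeq2 adjusted p of 0.112, and the TDG iKO change was 2.86 (adjusted p = 0.741) without its 6 h replicate 2 and 4.62 (0.155) without its 0 h replicate 1. Their edgeR adjusted p were 0.0725 and 0.125. Libraries of the Tdg cohort also differed in markers of other cells: over 6 myeloid progenitor markers (Mpo, Elane and others) the summed normalised count was 1294 to 3917 in the 4 replicate 1 libraries and 153 to 394 in the 4 replicate 2 libraries, and over 5 neutrophil markers it was 1189 to 3864 and 162 to 444. At least 4 of the progenitor and 2 of the neutrophil markers were over the floor of 3 counts in every library of the cohort. Their part in the replicate difference of Nos2 was not tested. In bulk RNA, fewer cells of a type and less RNA per cell cannot be told apart.

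Of 12 other nitric oxide synthases, modifiers and targets, 7 were tested. Nos3, the endothelial synthase that NOSTRIN moves within cells, had at most 4 counts summed over the 2 libraries of any BMDM group. Nostrin fell by 1.06 ± 0.28 in WT of the Tet cohort (DESeq2 adjusted p = 0.00128) and 1.28 ± 0.29 in TET iTKO (0.000115), the first resting on single libraries (-1.33 to -0.84 with 1 left out). It fell by 1.61 ± 0.45 in WT of the Tdg cohort (0.00608), lost in edgeR (0.0758) and without 0 h replicate 2 or 6 h replicate 2 (0.0733 and 0.319), and did not pass in TDG iKO. The chaperone Hsp90ab1 rose by 0.34 ± 0.12 in WT of the Tet cohort (DESeq2 adjusted p = 0.0188) and 0.30 ± 0.12 in TET iTKO (0.0495), and both calls were lost in edgeR (0.0519 and 0.0931) and in 2 and 3 of the fits that leave out 1 library. Ddah2, named after its values were seen because its mean was below 50 normalised counts, fell in TET iTKO by 1.78 ± 0.57 (0.0108), lost without 0 h replicate 2 or 6 h replicate 1 (0.293 and 0.200).

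Gch1 (chromosome 14, 47773570 to 47809088, minus strand, mm9), which encodes the first enzyme of tetrahydrobiopterin synthesis, was already expressed without stimulus. Its 0 h libraries held 584 and 1212 normalised counts in WT of the Tdg cohort, 613 and 740 in TDG iKO, 597 and 676 in WT of the Tet cohort and 756 and 736 in TET iTKO. At 6 h they held 1743 and 2307, 1761 and 2562, 1501 and 1828, and 1485 and 1798 in the same order. The 0 h and 6 h libraries did not overlap in any genotype, and the lowest at 6 h was 1.23 times the highest at 0 h, which was WT replicate 2 of the Tdg cohort. The log2 changes in the Tet cohort were 1.39 ± 0.15 in WT (DESeq2 adjusted p = 7.84e-20) and 1.13 ± 0.15 in TET iTKO (2.25e-13).

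In the Tdg cohort Gch1 rose by 1.19 ± 0.41 on the log2 scale in WT (DESeq2 adjusted p = 0.0415) and by 1.68 ± 0.40 in TDG iKO (0.00102). The WT call was lost in edgeR (adjusted p = 0.136), with only the WT groups fitted (DESeq2, 0.0618), and without 0 h replicate 1 (change 0.75, adjusted p = 0.163) or 6 h replicate 1 (0.120) or 2 (0.608). The TDG iKO call was lost in edgeR (0.0659) and without 0 h replicate 1 (DESeq2, 0.0685) or 6 h replicate 2 (0.111). The other 7 genes of tetrahydrobiopterin synthesis and recycling gave little in the same direction as Gch1. Of the 5 tested, 1 fell in TET iTKO with KLA (Spr, sepiapterin reductase, by 0.66 ± 0.21, DESeq2 adjusted p = 0.00743), where 11.6% of all genes tested were called lower. None passed the DESeq2 test in the other 3 genotypes (in WT of the Tet cohort Spr passed in edgeR, adjusted p = 0.0407, against 0.0608 in DESeq2). The median log2 change of the 5 was -0.90 in WT of the Tdg cohort, -0.46 in TDG iKO, -0.14 in WT of the Tet cohort and -0.33 in TET iTKO. Over all genes it was -0.03, 0.0005, -0.01 and -0.01 in the same order. The Spr call was lost without TET iTKO 0 h replicate 1 or 2 or 6 h replicate 1 (adjusted p 0.0532 to 0.146).

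Slc7a2 (chromosome 8, 41947750 to 42007662, mm9), a carrier of arginine and other cationic amino acids, rose in all 4 genotypes. At 0 h it held 199 and 197 normalised counts in WT of the Tdg cohort, 125 and 276 in TDG iKO, 213 and 251 in WT of the Tet cohort and 454 and 425 in TET iTKO. At 6 h it held 5782 and 13026, 3765 and 11099, 3711 and 5599, and 9121 and 9991. The lowest 6 h library was 8.17 times the highest 0 h library. As for Nos2, replicate 2 was higher than replicate 1 at 6 h in both genotypes of the Tdg cohort.

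Slc7a2 rose by 5.58 ± 0.57 on the log2 scale in WT of the Tdg cohort (DESeq2 adjusted p = 1.48e-19), 5.21 ± 0.57 in TDG iKO (1.94e-17), 4.33 ± 0.17 in WT of the Tet cohort (2.15e-145) and 4.44 ± 0.16 in TET iTKO (2.55e-160). The largest adjusted p over all alternatives run was 0.0137, from edgeR. Counts of Slc7a2 could include reads of the lincRNA Gm17475, which overlaps 635 exonic bases on the opposite strand, since the strand setting of the counting was not given in the sources used here. Only 1.3% of the 50-base windows of its longest coding transcript occurred elsewhere in mm9.

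Of 5 other arginine transport genes, 4 were tested. The carrier Slc7a1 rose with KLA in TET iTKO by 0.50 ± 0.18 (DESeq2 adjusted p = 0.0257), a call lost without any of the 4 TET iTKO libraries in turn (0.0753 to 0.267). Slc7a7, the light chain of the y+L exchanger that moves arginine out of cells, fell by 0.72 ± 0.15 in WT of the Tet cohort (2.45e-05). It fell by 0.43 ± 0.16 in TET iTKO (DESeq2 adjusted p = 0.0260), which was lost with only the TET iTKO groups fitted (0.0952) and without 0 h replicate 1 or 6 h replicate 1 or 2 (0.0915 to 0.512). None passed the test in the Tdg cohort.

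Irg1 (chromosome 14, 103446194 to 103455790, mm9), the source of itaconate, was the most abundant of the 9 genes per length in every group. It held 2864 and 5191 normalised counts at 0 h and 66327 and 76813 at 6 h in WT of the Tdg cohort, and 2054 and 5477, then 60317 and 74793, in TDG iKO. It held 3618 and 4606, then 43030 and 56191, in WT of the Tet cohort, and 5062 and 5292, then 38307 and 40849, in TET iTKO. Each 6 h library was at least 6.99 times the highest 0 h library. The highest 0 h libraries were not those with the highest 6 h counts in the Tet cohort, where TET iTKO led at 0 h and WT at 6 h.

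The log2 change of Irg1 was 4.16 ± 0.47 in WT of the Tdg cohort (DESeq2 adjusted p = 2.78e-16), 4.17 ± 0.47 in TDG iKO (2.08e-16), 3.59 ± 0.14 in WT of the Tet cohort (2.77e-148) and 2.93 ± 0.14 in TET iTKO (3.87e-98). The edgeR adjusted p in the Tdg cohort were 0.0111 and 0.0115. Of 18 genes of citrate, aconitate and itaconate turnover, all tested, none passed in the Tdg cohort. In both genotypes of the Tet cohort 2 fell, a share near that of all genes tested (11.1% called lower in WT and 11.6% in TET iTKO). These were the isocitrate dehydrogenases Idh1 (by 0.71 ± 0.15 in WT, DESeq2 adjusted p = 1.15e-05, and 0.78 ± 0.15 in TET iTKO, 1.38e-06) and Idh2 (by 0.86 ± 0.15, 6.30e-08, and 0.79 ± 0.15, 1.16e-06). The other 16, which include aconitase and the subunits of succinate dehydrogenase, did not pass.

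The arginases parted. Arg2 (chromosome 12, 80231764 to 80257288, mm9) held 20.1 and 8.70 normalised counts at 0 h and 84.2 and 90.8 at 6 h in WT of the Tdg cohort, and 36.6 and 22.2, then 87.3 and 165, in TDG iKO. It held 105 and 154, then 255 and 357, in WT of the Tet cohort, and 187 and 122, then 481 and 352, in TET iTKO. Within each genotype the 6 h libraries were all above the 0 h libraries, but the 0 h libraries of the Tet cohort reached above several 6 h libraries of the Tdg cohort. The cohorts came from different mouse lines and libraries, so a difference between them cannot be told apart from one of preparation.

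Arg2 rose by 1.23 ± 0.27 on the log2 scale in WT of the Tet cohort (DESeq2 adjusted p = 3.49e-05) and 1.43 ± 0.26 in TET iTKO (8.99e-07). It rose by 2.50 ± 0.67 in WT of the Tdg cohort (0.00371) and 2.13 ± 0.59 in TDG iKO (0.00658). The WT call was lost in edgeR (0.0611) and without 6 h replicate 1 (DESeq2, 0.0550) or 2 (0.131), and the TDG iKO call in edgeR (0.0928) and without 0 h replicate 2 (DESeq2, 0.265) or 6 h replicate 2 (0.534). Arg2 overlaps Vti1b on the opposite strand over 285 exonic bases.

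Arg1 (chromosome 10, 24635014 to 24647276, minus strand, mm9) stayed low, between 37.7 and 103 normalised counts at 0 h (median 60.3, n = 8) and between 22.3 and 114 at 6 h (median 76.7, n = 8). The 0 h and 6 h libraries overlapped in all 4 genotypes, and the log2 change ranged over the genotypes from -0.30 in TDG iKO to 0.65 in WT of the Tet cohort (95% interval -0.10 to 1.397, DESeq2 adjusted p = 0.235). The TDG iKO libraries were the lowest at 6 h, with 54.2 and 22.3 counts. Per length, Nos2 was below Arg1 in all 8 libraries at 0 h (ratio 0.0324 to 0.809, median 0.235) and above it in all 8 at 6 h (1.87 to 74.2, median 6.62).

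Of 9 symbols listed for alternative activation, the IL-4-driven state in which Arg1 is known, 8 were in the tables. Chi3l3 and Chil3 in that list name 1 gene. Il4ra, a chain of the IL-4 receptor, fell with KLA in all 4 genotypes, by 0.83 ± 0.10 in WT of the Tet cohort (DESeq2 adjusted p = 2.79e-15) and 1.22 ± 0.10 in TET iTKO (5.20e-33). In WT of the Tdg cohort it fell by 1.00 ± 0.30 (0.0157) and in TDG iKO by 1.07 ± 0.30 (0.00812). Both of these were lost in edgeR (0.100 and 0.0816), the first also with only the WT groups fitted (DESeq2, 0.0501), and in some of the fits that leave out 1 library: without WT 0 h replicate 2 or 6 h replicate 1 or 2 (0.136 to 0.255), and without TDG iKO 0 h replicate 1 or 2 or 6 h replicate 1 (0.0604 to 0.252). Mrc1, the mannose receptor, fell by 1.58 ± 0.19 in WT of the Tet cohort (DESeq2 adjusted p = 2.69e-15) and by 1.67 ± 0.19 in TET iTKO (1.42e-16).

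Odc1 (chromosome 12, 17551679 to 17558308, mm9), which makes putrescine from ornithine, fell with KLA in the Tet cohort, unlike the 5 members that rose. In the Tet cohort it held 908 and 933 normalised counts at 0 h and 616 and 607 at 6 h in WT, and 921 and 1114, then 737 and 763, in TET iTKO. In the Tdg cohort it held 1335 and 789, then 987 and 750, in WT, and 1487 and 937, then 1233 and 758, in TDG iKO. The 0 h and 6 h libraries separated in the Tet cohort and overlapped in the Tdg cohort, where replicate 1 was above replicate 2 in all 4 groups.

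Odc1 fell by 0.59 ± 0.14 on the log2 scale in WT of the Tet cohort (DESeq2 adjusted p = 0.000189) and by 0.45 ± 0.14 in TET iTKO (0.00654). The second call was lost without TET iTKO 0 h replicate 2 (change -0.30, adjusted p = 0.278) or 6 h replicate 1 (0.0741). In all, 55.1% of the 50-base windows of its longest coding transcript occurred elsewhere in mm9, at copies on chromosomes 5, 8, 12 and X. Reads there cannot be placed at 1 site, so its counts are uncertain.

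Of 12 other genes of polyamine synthesis and turnover, 10 were tested and none rose. Over all genes tested, 4.27% to 13.1% were called higher in the 4 genotypes, so none of 10 is near that share. Amd1 and Oaz1 were too low to be tested, with 0 counts for Amd1 and at most 1 for Oaz1 in any BMDM group. Whether this lay in their expression or in the counting was not tested. Paox, a polyamine oxidase, fell in all 4 genotypes, by 2.13 ± 0.42 in WT of the Tdg cohort (DESeq2 adjusted p = 1.98e-05), 1.52 ± 0.41 in TDG iKO (0.00457), 2.30 ± 0.27 in WT of the Tet cohort (1.12e-15) and 2.08 ± 0.28 in TET iTKO (2.64e-12). The TDG iKO call was lost without 0 h replicate 1 or 2 or 6 h replicate 2 (0.116 to 0.347). Azin1, the antizyme inhibitor that protects ODC1, fell in the Tet cohort by 0.55 ± 0.11 in WT (2.43e-06) and 0.49 ± 0.11 in TET iTKO (4.37e-05). Sms, spermine synthase, fell in WT of the Tet cohort by 0.52 ± 0.17 (DESeq2 adjusted p = 0.0121), which was lost without any of the 4 WT libraries in turn (0.0672 to 0.207). The 6 genes of ornithine and proline synthesis, of which 4 were tested in each KLA comparison, gave no call. Over all genes tested 7.08% to 24.4% were called, so no call among 4 says little.

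Asl (chromosome 5, 130487128 to 130501002, minus strand, mm9), which releases arginine from argininosuccinate, did not pass the test with KLA in any genotype. It lay between 399 and 882 normalised counts at 0 h (median 411, n = 8) and between 379 and 505 at 6 h (median 428, n = 8). The 882 was WT replicate 2 of the Tdg cohort, the library with the fewest assigned counts, and the 0 h and 6 h values of the other 15 libraries overlapped. The log2 change in the Tet cohort was -0.01 in WT (95% interval -0.33 to 0.30) and 0.06 in TET iTKO (-0.26 to 0.37). In WT of the Tdg cohort it was -0.47 (-1.28 to 0.33), and -0.93 with a DESeq2 adjusted p of 0.0396 without 0 h replicate 1, which left only the 882 at 0 h.

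Ass1 (chromosome 2, 31325727 to 31376192, mm9), the other enzyme of citrulline recycling, had no count in 14 of the 16 libraries, and had 4 and 2 counts in 1 TDG iKO and 1 TET iTKO library at 6 h. At the depth of these libraries a count of 0 allows up to 3 counts. In all, 66.4% of the 50-base windows of its coding transcript also occur in the pseudogene Gm5424 on chromosome 10 (61533821 to 61535357, mm9), which had no counts either. Reads shared by both are not assigned by the counter, so the level of Ass1 is uncertain.

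**Figure D2:**
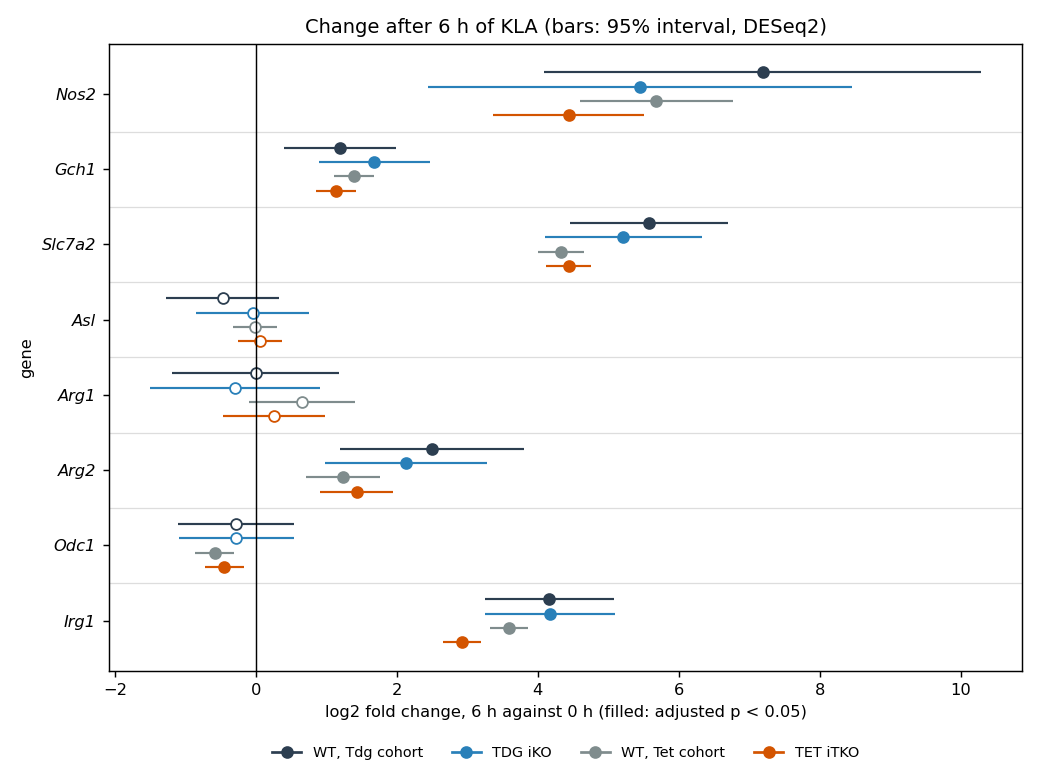
Log2 fold change at 6 h of KLA against 0 h (horizontal axis) for 8 genes (vertical axis) in 4 genotypes, with 95% intervals from DESeq2; filled points have an adjusted p under 0.05. Nos2, Slc7a2, Irg1, Arg2 and Gch1 are filled and right of 0 in all 4, Odc1 is filled left of 0 in the Tet cohort only, and intervals are wider in the Tdg cohort.

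Levels of different genes were compared as FPKM, computed here from the counts of read pairs, the longest coding transcript and the assigned total of each library. Pairs that align to several places are not counted, while the full length is used. The values of Odc1 and Ass1, with 55.1% and 66.4% of windows found elsewhere, may therefore be too low. Ranks that involve these 2 genes are uncertain. At 0 h in WT of the Tet cohort the means of 2 libraries were 120 for Irg1, 27.8 for Odc1, 17.6 for Gch1, 13.8 for Asl, 6.96 for Arg2, 2.54 for Arg1, 2.25 for Slc7a2 and 0.698 for Nos2. At 6 h they were 1334 for Irg1, 42.3 for Gch1, 41.4 for Slc7a2, 32.8 for Nos2, 16.99 for Odc1, 15.1 for Arg2, 12.6 for Asl and 3.65 for Arg1. Among the 9 genes Nos2 went from rank 8 to rank 4, and Slc7a2 from rank 7 to rank 3. Neighbours at 6 h whose libraries overlapped were Gch1, Slc7a2 and Nos2 (34.0 to 48.9 for Slc7a2, 18.4 to 47.2 for Nos2), Odc1 with Arg2 (16.5 to 17.5 and 12.9 to 17.3), and Arg2 with Asl (12.04 to 13.2), as did Arg1 with Slc7a2 at 0 h (1.95 to 3.12 and 2.08 to 2.42). At 0 h Nos2 had rank 8, above Ass1 alone, and Irg1 rank 1, in every group.

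**Figure D3:**
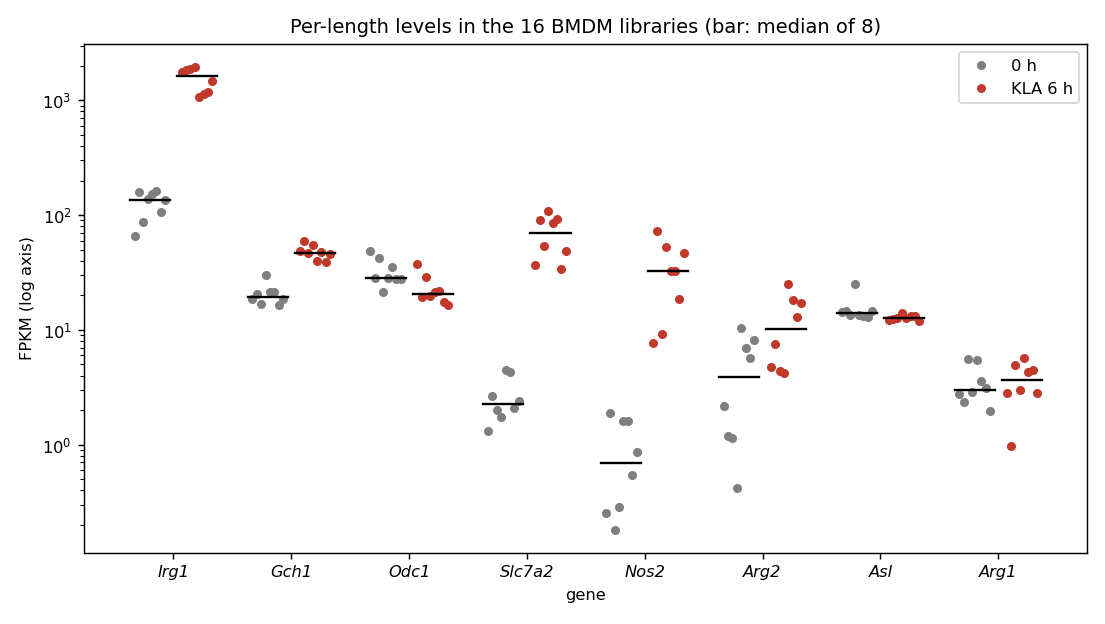
FPKM (vertical log axis) for 8 genes in the 16 BMDM libraries, 8 at 0 h (grey) and 8 at 6 h of KLA (red), with the median of 8 as a line. Irg1 is highest at both times, and Nos2 and Slc7a2 move from below Asl to above it in the medians.

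Loss of TDG moved none of the 9 genes past the threshold. At 0 h and at 6 h, 0% of the 15026 genes tested were called, with 265 and 34 genes at an unadjusted p under 0.05, and edgeR also called 0, with 125 and 27. The change in the KLA response between TDG iKO and WT gave the same, with 0% of genes called by DESeq2 or edgeR and 37 and 24 at an unadjusted p under 0.05. The intervals were wide. The log2 difference of TDG iKO from WT at 6 h was 0.41 for Nos2 (95% interval -2.59 to 3.41), -0.34 for Slc7a2 (-1.45 to 0.76) and -0.08 for Irg1 (-1.002 to 0.83), so changes of several fold were not detectable for Nos2 at this spread.

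At 0 h Nos2 had 12.6 and 104 normalised counts in TDG iKO against 9.46 and 17.4 in WT, a log2 difference of 2.14 (-0.96 to 5.25) that was -0.053 without the TDG iKO replicate 2. Arg1 was lower in TDG iKO than in WT in every library at both times (48.0 and 45.1 against 103 and 60.9 at 0 h, 54.2 and 22.3 against 99.0 and 66.2 at 6 h), with a DESeq2 adjusted p of 1.00 at either time. Without WT 0 h replicate 1 the 0 h comparison called 1177 genes in place of 0, of which Asl was 1 member (log2 difference -1.002, DESeq2 adjusted p = 0.0391).

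Loss of the TET enzymes raised Slc7a2, and no other of the 9 genes passed the test. At 0 h the TET iTKO libraries held 454 and 425 normalised counts against 213 and 251 in WT, a log2 difference of 0.92 ± 0.17 (DESeq2 adjusted p = 7.17e-06, edgeR 0.0178). At 6 h they held 9121 and 9991 against 3711 and 5599, a difference of 1.03 ± 0.16 (DESeq2 adjusted p = 1.57e-08, edgeR 0.00954). The groups did not overlap at either time, and the call stood in every alternative run. Called genes were 1 of 8 members tested at 0 h, where 7.5% of all genes were called, and 1 of 8 at 6 h, where 6.58% were, a share of members near that background. The KLA response of Slc7a2 differed between the genotypes by 0.11 (95% interval -0.35 to 0.57), which did not pass the test.

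Other arginine carriers also differed between TET iTKO and WT. Slc7a1, the constitutive cationic amino acid transporter, held 464 and 503 normalised counts against 202 and 286 at 0 h and 650 and 723 against 304 and 320 at 6 h. It was higher by 0.98 ± 0.18 on the log2 scale at 0 h (DESeq2 adjusted p = 7.57e-06) and 1.13 ± 0.18 at 6 h (1.14e-07), and the call stood in every alternative run. Slc7a7 held 526 and 705 against 1167 and 1196 at 0 h and 447 and 468 against 707 and 731 at 6 h. It was lower, with a log2 difference of -0.95 ± 0.15 (DESeq2 adjusted p = 6.46e-08) at 0 h and -0.67 ± 0.16 (0.000843) at 6 h, the latter lost without TET iTKO 6 h replicate 2 (0.0585). Slc7a2 and Slc7a1 were higher and Slc7a7 lower, with no overlap between genotypes at either time. With 2 libraries per group, such separation can also arise by chance. The other tested genes of the list, Slc7a6 and Slc3a2, did not pass the test. At 0 h both were higher in TET iTKO without overlap (319 to 324 against 225 to 267, and 7643 to 7784 against 6415 to 7517). At 6 h Slc7a6 overlapped, and Slc3a2 was higher (7065 to 7439 against 6237 to 6930).

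Markers of other cells moved with the genotype in the same libraries. Over the 7 macrophage markers the summed normalised count was 287900 to 293267 in TET iTKO and 342822 to 353872 in WT at 0 h, and 296472 to 303568 and 368682 to 375266 at 6 h. Of the 7 genes 1 was called higher and 3 lower at 0 h, and 4 lower at 6 h (DESeq2). Over all genes tested, 4.38% were called higher and 3.12% lower at 0 h, and 3.34% lower at 6 h. By edgeR, 2 of the 7 were called at 0 h and 3 at 6 h. Over 5 neutrophil markers the sum was 789 to 1494 in TET iTKO and 296 to 444 in WT at 0 h, and 928 to 1345 and 440 to 442 at 6 h. Over 6 myeloid progenitor markers it was 287 to 1027 against 177 to 421 at 0 h and 286 to 752 against 140 to 224 at 6 h. Over 4 B cell markers it was 69.7 to 271 against 19.5 to 23.5 at 0 h. At 0 h each of the 5, 6 and 4 markers of these lists was over the floor of 3 counts in both TET iTKO libraries. At both times TET iTKO replicate 2 had the higher sum of the neutrophil, progenitor and B cell lists and the lower sum of the macrophage list. Slc7a2 in replicate 2 was below that of replicate 1 at 0 h and above it at 6 h. The part of these cells in the transporter differences was not tested.

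**Figure D4:**
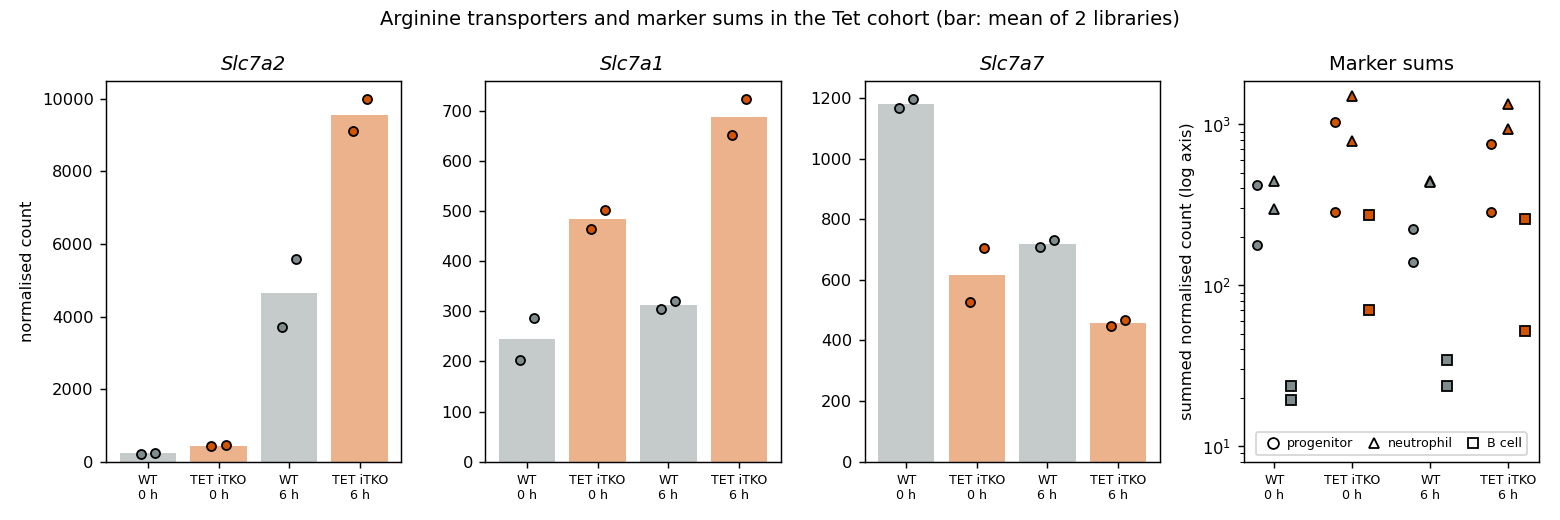
Normalised counts of Slc7a2, Slc7a1 and Slc7a7 in the Tet cohort (first 3 panels, bars are means of 2 libraries and points the libraries) and summed normalised counts of progenitor, neutrophil and B cell markers (last panel, log axis). Slc7a2 and Slc7a1 are higher and Slc7a7 lower in TET iTKO (orange) than in WT (grey) at 0 h and 6 h. The marker sums are higher in TET iTKO, except that the progenitor sums overlap at 0 h.

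Irg1 leaned in opposite directions at the 2 times. It was higher in TET iTKO at 0 h (5062 and 5292 normalised counts against 3618 and 4606, log2 difference 0.33, 95% interval 0.06 to 0.60) and lower at 6 h (38307 and 40849 against 43030 and 56191, -0.34, -0.61 to -0.07), without overlap at either time. Neither passed the test (DESeq2 adjusted p = 0.146 and 0.137), though the first did without WT 0 h replicate 2 (0.0473) and with only the 0 h groups fitted (0.0499), and the second without WT 6 h replicate 1 (0.00941). The difference in KLA response was -0.67 ± 0.19, with an unadjusted p of 0.00057 and an adjusted p of 0.0993 (DESeq2; edgeR adjusted p = 0.525), in a comparison that called 0.426% of all genes and no member. It passed without WT 0 h replicate 2 (-0.85, DESeq2 adjusted p = 0.0257) or WT 6 h replicate 1 (-0.85, 0.000362).

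Nos2 was higher in TET iTKO at 0 h in both libraries (86.2 and 84.5 normalised counts against 29.4 and 46.9, log2 difference 1.15, 95% interval 0.05 to 2.26, DESeq2 adjusted p = 0.261). At 6 h the 2 TET iTKO libraries (1866 and 1848) lay between the WT libraries (1067.1 and 2860). The sign of the 6 h difference depended on which WT library was kept: it was -0.64 without WT replicate 1 (DESeq2 adjusted p = 0.00734) and 0.79 without WT replicate 2 (0.000945), against -0.09 with both. The difference in KLA response was -1.25 (-2.77 to 0.28) and passed without WT 6 h replicate 1 (-1.76, DESeq2 adjusted p = 1.04e-07).

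The remaining genes gave no call between TET iTKO and WT. Gch1 overlapped between genotypes at 6 h and was higher in TET iTKO in both libraries at 0 h, with 756 and 736 against 597 and 676 normalised counts. Arg1 was also higher at 0 h without overlap, with 103 and 65.9 against 59.7 and 37.7 normalised counts (log2 difference 0.79, 95% interval 0.05 to 1.53, DESeq2 adjusted p = 0.247), and overlapped at 6 h. Arg2 and Asl overlapped at both times. Odc1 was higher in TET iTKO in both libraries at 6 h (737 and 763 against 616 and 607, DESeq2 adjusted p = 0.284).

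Among genes of alternative activation, Mrc1 was lower in TET iTKO, with a log2 difference of -1.12 ± 0.19 (DESeq2 adjusted p = 3.32e-07) at 0 h and -1.21 ± 0.19 (6.32e-08) at 6 h, the latter lost without TET iTKO 6 h replicate 2 or WT 6 h replicate 1 (0.176 in either case). Il4ra was higher at 0 h by 0.49 ± 0.10 (3.70e-05). Chi3l3, a chitinase-like protein, was higher by 1.65 ± 0.37 at 0 h (0.00034) and 1.497 ± 0.37 at 6 h (0.00226), lost without TET iTKO replicate 2 or WT replicate 1 of the same time (0.0931 to 0.231) and in edgeR at 6 h (0.0639). At 0 h 2 of 5 tested were called higher and 1 lower, against 4.38% and 3.12% of all genes tested, with a list median of 0.49 against 0.01 over all genes. At 6 h 1 of 5 was called higher and 1 lower, against 3.24% and 3.34%. The list median then had the opposite sign, -0.64 against -0.002 over all genes. In the other lists Sms at 0 h (-0.51, DESeq2 adjusted p = 0.0385) and Idh1 at 6 h (-0.46, 0.0325) were lower, Sms lost without any of the 4 libraries (0.139 to 0.473) and Idh1 in edgeR (0.0845) and without TET iTKO 6 h replicate 2 (0.555) or WT 6 h replicate 1 (0.576).

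**Figure D5:**
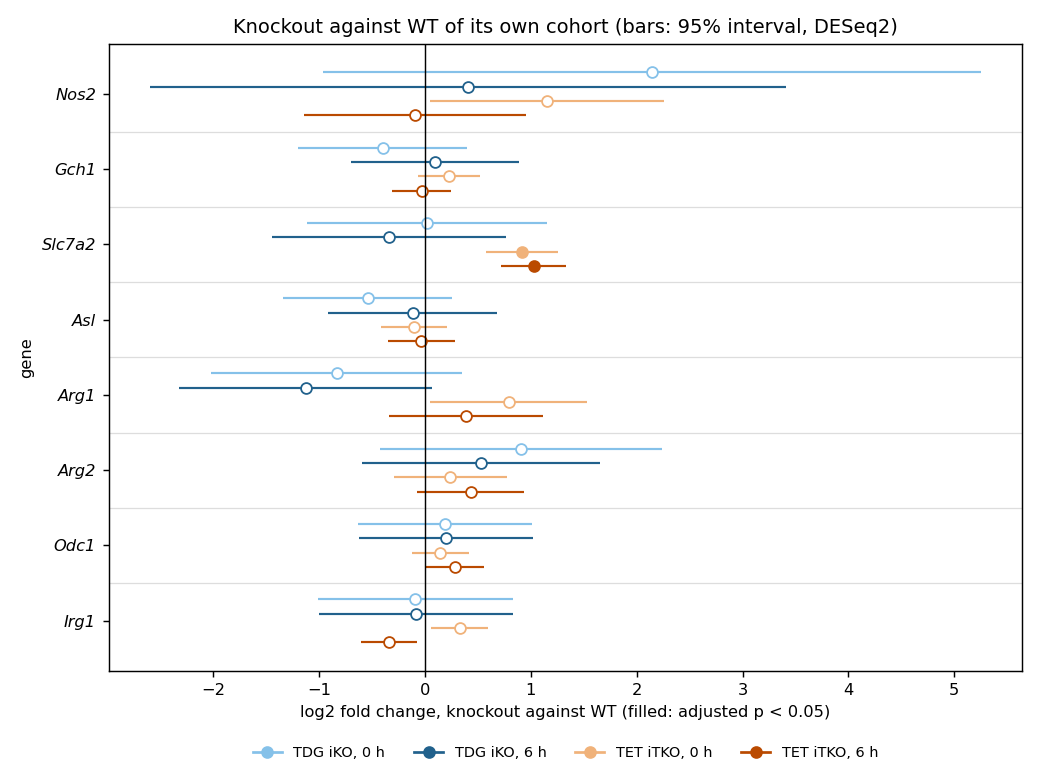
Log2 fold change of each knockout against the WT of its own cohort (horizontal axis) for 8 genes (vertical axis) at 0 h and 6 h, with 95% intervals from DESeq2; filled points have an adjusted p under 0.05. Slc7a2 in TET iTKO is filled at both times, and the TDG iKO intervals, Nos2 above all, are wider.

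The TET effect and the TDG effect, each against its own WT, did not differ past the threshold for any of the 9 genes. The comparison called 0.355% of all genes at 0 h and 0.0765% at 6 h. For Slc7a2 the difference of the 2 effects was 0.90 (95% interval -0.47 to 2.27) at 0 h and 1.38 (0.04 to 2.72, unadjusted p = 0.0438, DESeq2 adjusted p = 1.00) at 6 h. For Arg1, which was higher in TET iTKO and lower in TDG iKO than in WT at 0 h, it was larger, 1.64 (0.31 to 2.97, unadjusted p = 0.0156, DESeq2 adjusted p = 0.635) at 0 h and 1.54 (0.21 to 2.87, unadjusted p = 0.0229, DESeq2 adjusted p = 1.00) at 6 h.

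Over the 16 BMDM libraries the genes most like Slc7a2 in log2 normalised count were Tnfrsf1b, Gas7 and Icam1 (Pearson r 0.993, 0.992 and 0.990), and those most like Irg1 were Cd82, Peli1 and Cdc42ep2 (0.991, 0.989 and 0.987). Gch1 was most like Tarm1, Nfkbia and Nfkbib (0.990, 0.983 and 0.981) and Nos2 most like Tnfrsf14, Pim1 and Mfsd7a (0.989, 0.988 and 0.986). The points share their KLA time, cohort and depth, so these values are descriptions. Arg1, by contrast, had no close match, with Chsy1 the nearest (0.666).

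In the 8 libraries of Th2 cells, helper T cells of TDG iKO and WT mice, most of the 9 genes were at or near 0 counts. Slc7a2 and Ass1 had no counts in any, Arg2, Irg1 and Nos2 had at most 3, 4 and 5 counts, Arg1 had 2 to 30, and Gch1 had 23 to 150. Asl (302 to 892 counts) and Odc1 (2251 to 4393) were expressed in all 8.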

How the data were processed

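Directional polyA+ RNA libraries were sequenced in pairs. The authors aligned reads to mm9 with HISAT2 and deposited whole-number counts per gene from HTSeq, with no normalisation; 5 tallies of unassigned pairs per library (32.8% to 46.6% of pairs in BMDMs) were left out. The annotation, strand setting and tool versions of alignment and counting are not given in the sources used here, and pairs that align to several places are not assigned. Groups came from the sample labels. The members, lists and tests were chosen with earlier results of these data known.

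The Wald test of DESeq2 1.42.0 (R 4.3.3) was fitted on each BMDM cohort of 8 libraries with a mean per group, and on all 16 for differences between the TET and TDG effects, with an adjusted p threshold of 0.05. Alternatives were edgeR 4.0.16 (quasi-likelihood, TMM), TMM factors in DESeq2, a filter that keeps genes with 10 or more counts in 2 or more libraries, a block on replicate number (also nested in genotype), only the groups compared, and each library left out. Genes named were the 9 members, the targeted genes, from each list at most the 3 genes with the largest change past the threshold and a mean of at least 50 normalised counts, and for each member the 3 genes with the highest correlation. Both tests were checked on simulated counts, where DESeq2 made more false calls than its threshold allows, mostly with the spread of the Tdg cohort, so edgeR values are given beside calls that it did not make. Gene spans and transcripts were from GENCODE vM1 (mm9), in which all 9 symbols were found. Intervals cover the spread between libraries, and the floor of 3 counts covers counting error only.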

Additional observations from a re-analysis of the deposited data

How the results depend on the processing

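With edgeR, 2 in place of 5 of the 9 genes were called with KLA in either genotype of the Tdg cohort (Irg1 and Slc7a2). With only the groups compared, 2 in place of 1 were called in TET iTKO at 0 h (Irg1 with Slc7a2). Leaving out 1 library at a time, the number called ranged from 2 to 5 with KLA in WT of the Tdg cohort and in TDG iKO, from 5 to 6 in TET iTKO, from 0 to 2 for the KLA response in TET iTKO against WT, from 0 to 1 in TDG iKO against WT at 0 h, from 1 to 2 and from 1 to 3 in TET iTKO against WT at 0 h and 6 h, and from 0 to 2 for the TET effect against the TDG effect at 0 h. The last 2 were Asl and Gch1, without WT 0 h replicate 1 of the Tdg cohort. In these fits the group with 1 library is assumed to vary like the others.

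The labels give replicate numbers but not a shared animal or day. Same-numbered 0 h and 6 h libraries of a genotype deviated together (r 0.357 and 0.815 in WT and TDG iKO of the Tdg cohort, 0.517 and 0.461 in WT and TET iTKO of the Tet cohort), as did those of both genotypes at one time in the Tdg cohort (0.316 at 0 h and 0.810 at 6 h) but not in the Tet cohort (0.0131 and 0.0348). With the replicate block, 1 in place of 0 members was called for the KLA response in TET iTKO against WT (Irg1, DESeq2 adjusted p = 0.00446, 1.49e-09 to 1.00 over all alternatives), 2 with the block nested in genotype (Irg1 and Nos2), 2 in place of 1 in TET iTKO against WT at 0 h and 2 at 6 h (Irg1 with Slc7a2), and 1 in place of 0 for the TET effect against the TDG effect at 6 h (Slc7a2, 0.0336). The block changed the number of members called in no other comparison.

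Of 1002 log2 changes of single members recomputed, 865 kept direction and side of the threshold, 21 lost it, 17 passed it and 99 changed sign, none of the last past the threshold in the main test. Among values given above, the sign changed within the range over left-out libraries for TDG iKO against WT in Nos2 at 0 h (-0.053 to 2.97) and 6 h (-2.19 to 2.28), Irg1 at 6 h (-0.24 to 0.059), Slc7a2 at 6 h (-1.31 to 0.36) and Asl at 0 h (-1.002 to 0.11), for KLA in Asl in WT of the Tdg cohort (-0.93 to 0.17) and of the Tet cohort (-0.11 to 0.093) and in Arg1 in TDG iKO (-1.06 to 0.24), for the KLA response in TDG iKO against WT in Nos2 (-4.34 to 0.46), for the KLA response in TET iTKO against WT in Slc7a2 (-0.15 to 0.45), and for TET iTKO against WT in Nos2 at 6 h (-0.64 to 0.79, and 0.029 with the replicate block). The cause was not tested. Over all genes, KLA called 1001 in WT of the Tdg cohort and 824 in TDG iKO (413 and 346 in edgeR, 1809 and 1375 with the replicate block, and from 350 to 2218 and from 376 to 700 over left-out libraries). The KLA response in TET iTKO against WT called 52 (1 in edgeR, 90 with the block, 225 with it nested, 14 to 155 over left-out libraries), and the TET effect against the TDG effect 39 at 0 h and 10 at 6 h (0 and 1 in edgeR, 186 and 101 with the block, 14 to 2403 and 2 to 17). TDG iKO against WT called 0 at 0 h and 4 with the block, and the KLA response in TDG iKO against WT 0, but 245 without WT 0 h replicate 1. TET iTKO against WT called 915 at 0 h and 765 at 6 h, and 276 and 264 without TET iTKO replicate 2 of the same time.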
